A study of Oncorhynchus mykiss with 8 samples.

Results

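White muscle of large and small rainbow trout (Oncorhynchus mykiss) was compared in the Sept. lot, one of 2 lots of the series, by competitive hybridisation to a 2-colour oligonucleotide array of salmonid transcripts. The lot is made up of the 4 arrays whose titles begin with Sept, of 8 arrays in the whole series. The fish were of the Lyndon commercial strain, their hatching time is given as Sept, and all were reared together at 1 research station. Feeding was to appetite per the labels, and by a ration set from expected growth per the methods. They were sexually immature offspring of 1 male and 5 females, and were fasted before they were weighed. Each pool held mRNA of 5 fish, 1 from each female's family, taken from the 2 largest or the 2 smallest of that family by weight, so the pool pairs share their families and the size classes differ in growth from hatching on. Per the labels, pool pair 1 set Large 1 against Small 1, and pool pair 2 set Large 2 against Small 2. The methods set the pool of the largest fish against that of the next to smallest and the second largest against the smallest, so which rank a pool number stands for is uncertain. Each pair was hybridised to 2 arrays, first with the large fish in Alexa Fluor 555 and the small fish in Alexa Fluor 647, then with the dyes exchanged. Both arrays of a pair share their RNA, so n = 2 pool pairs, and the number of arrays limits the precision of every value. A plug of muscle also holds blood, nerve, connective tissue and fat. An array ratio carries no level, so the tissue cannot be checked against the level of its markers, and fewer cells of a type cannot be told apart from less RNA per cell.

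White muscle is the fast, mostly anaerobic part of the fish myotome. Its fibres hold much parvalbumin, which takes up calcium after a contraction, and they live on creatine phosphate and glycolysis during bursts of swimming, while red muscle near the lateral line is slow and oxidative. Trout add new fibres to this tissue over much of their life, and protein synthesis and breakdown in it set much of their growth. Genes are given below by the roles of their products, from blood plasma to the sarcomere and then to the machinery of transcription and protein turnover.

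Values are log2(large/small), and those above 0 are higher in large fish. This direction is likely rather than certain, as no label states which size class is the numerator of a deposited ratio. It rests on the sign of the genes that the study listed. The values of a gene are given array by array. The pair of pool pair 1 comes first and that of pool pair 2 follows after the word then, and within each the array with the large fish in Alexa Fluor 555 precedes that in Alexa Fluor 647. The mean of the pool pairs is given with limma's standard error (± SE, n = 2 pool pairs), fitted on the Sept. lot alone. This SE holds nothing of the gap between swapped arrays. Where the 2 pool pairs nearly agree it stays at about 0.078, a floor set by the spread that limma shares over probes. An SE near that floor says little of a gene's own precision. Of 43603 probes, 41524 had a value on all 4 arrays and were tested, between 42667 and 43249 having a value on a single array.

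No probe passed the test after adjustment. Limma called 0 of 41524 probes at a Benjamini-Hochberg adjusted p under 0.05 (0.0%), the lowest adjusted p being 0.575, while 2026 probes (4.88%) had an unadjusted p under 0.05. Tests without moderation called 0 probes over the 4 arrays and 6 over the 2 pool pairs. Combined with a change of at least 1.2-fold, an unadjusted limma p up to 0.05 was met by 1654 probes (3.98%), 727 of them higher in large fish (1.75%) and 927 higher in small fish (2.23%). This pair of conditions is called the 1.2-fold threshold below. It is met before any correction for 41524 tests. The 4.88% of probes at an unadjusted p under 0.05 lies near the share that this cut-off passes where no probe differs. The threshold also does not ask for 1 sign over the arrays. Of the probes that met it, 361 in large and 470 in small fish lacked 1 sign on all 4 arrays. The side with more calls depended on the arrays used. Only the arrays with large fish in Alexa Fluor 555 gave 2020 in large and 1424 in small fish. Only those in Alexa Fluor 647 gave 1043 and 2201.

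The dye swaps set how far a single array can be read. Across the 41524 probes, the arrays of a swap correlated at r = -0.18 in pool pair 1 and -0.10 in pool pair 2, and arrays of 1 dye orientation correlated between the pool pairs at r = 0.24 (large fish in Alexa Fluor 555) and 0.30 (in Alexa Fluor 647). The means of the 2 pool pairs correlated at r = 0.091. These are descriptions across probes, which are not independent replicates. Over probes, the swap means had a standard deviation of 0.22 and 0.24, and the part that turned with the dye, the swapped arrays' difference divided by 2, had 0.26 in both pool pairs. In all 4093 probes (9.86%) had 1 sign on all 4 arrays, 1965 positive (4.73%) and 2128 negative (5.12%). More probes, 14050, had opposite signs on the 2 arrays of both swaps. If the swapped arrays are read as not yet turned, 10545 probes had 1 sign on all 4. A shared sign on all 4 arrays is thus no mark of swaps that agree across probes. Whether the part that turned with the dye is a property of the dyes, or arrays that were deposited without being turned, was not tested. The plot of the pool pairs shows this spread and the named genes that lie outside it.

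**Figure D1:**
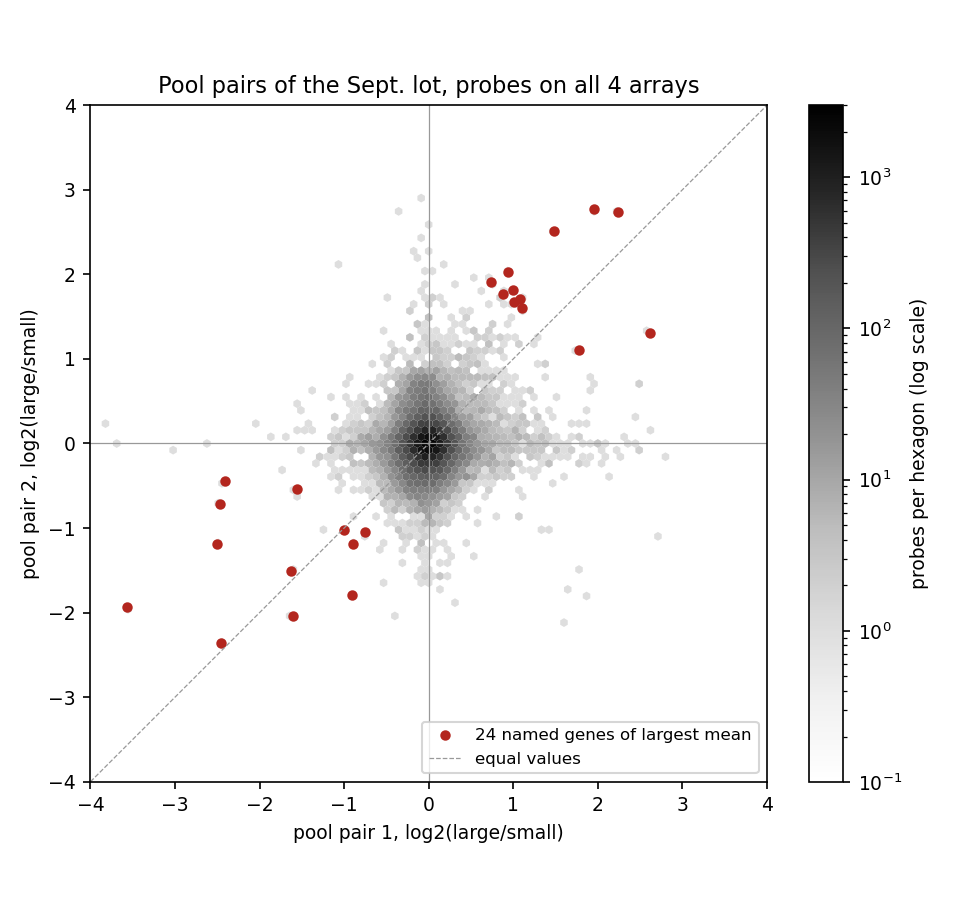
Log2(large/small) of pool pair 1 (horizontal) against pool pair 2 (vertical), each the mean of 2 swapped arrays, for the 41524 probes on all 4 arrays, 1 of which lies beyond the axes at 4. Grey hexagons show how many probes they hold on a log scale, and red points are the 24 named genes of largest mean with 1 sign on all arrays, all in the upper right or the lower left, since they were chosen for that.

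A name was at hand for 1378 of the tested probes. Of these, 301 owe their name to having been picked as differing on these same arrays, and the sign of such a probe is not independent evidence. The other 1077 were named from other lists of picked genes or from the annotation of the array. Among those 1077, 62 met the 1.2-fold threshold in large fish (5.76%) and 25 in small fish (2.32%), beside 1.75% and 2.23% of all probes. Of all 1378 named probes, from which the gene lists below are drawn, 151 met it in large and 231 in small fish. The counts of a list are to be read against these, and those of its probes not picked against the 62 and 25 of 1077. How these names were assigned bears on which probes could be named at all, and 40146 tested probes had none.

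The highest named probe in large fish was that of max protein, by its name the dimer partner of the transcription factor Myc, with log2 ratios of 2.06 and 2.41 in pool pair 1 and 2.61 and 2.87 in pool pair 2. All 4 arrays lay above 2, and the mean of 2.49 ± 0.15 is 5.61-fold. DNA-damage-inducible transcript 4-like protein, a relative of an inhibitor of the growth kinase mTOR, measured 1.58 and 2.32, then 2.63 and 2.91, a mean of 2.36 ± 0.23 (5.14-fold). ADP/ATP translocase 2, which carries ADP into mitochondria and ATP out of them, measured 1.16 and 1.80, then 2.17 and 2.86 (mean 2.00 ± 0.28). In these 3 genes every array of pool pair 2 lay above its partner of the same dyes in pool pair 1. The probe of complement C1q-like protein 4, a secreted protein with a C1q domain, ran the other way, at 2.48 and 2.75, then 1.45 and 1.16 (mean 1.96 ± 0.35), and so did polycystic kidney disease protein 1-like 3, at 1.97 and 1.58, then 1.2 and 1.02 (mean 1.44 ± 0.19).

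A further group of probes was high in large fish mainly where the large fish carried Alexa Fluor 647. Hig1 domain family member 2a, a small protein of the mitochondrial inner membrane that helps to assemble the respiratory chain in mammals, measured 0.068 and 1.81, then 1.25 and 2.82 (mean 1.48 ± 0.29). A c-type lectin, a carbohydrate-binding protein, measured 0.39 and 1.6, then 1.14 and 2.49 (mean 1.41 ± 0.22). Beta-enolase-like isoform 1, a muscle glycolytic enzyme, measured 0.25 and 1.22, then 1.11 and 2.71 (mean 1.32 ± 0.31). All 3 kept 1 sign, and in each pool pair the array with the large fish in Alexa Fluor 647 was the higher. In 40S ribosomal protein S30, part of the small ribosomal subunit, the dyes lay closer together, at 0.93 and 1.29, then 1.34 and 1.86 (mean 1.35 ± 0.15, 2.56-fold), and cathepsin M, a lysosomal protease, lay between 0.81 and 1.83 on the 4 arrays (mean 1.34 ± 0.19).

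In small fish the highest named probe was parvalbumin 2, the calcium buffer of fast fibres. Its log2 ratios were -4.54 and -2.59 in pool pair 1 and -2.21 and -1.65 in pool pair 2, a mean of -2.75 ± 0.43, or 6.72-fold higher in small fish. Parvalbumin beta-2 followed the same order over the arrays, at -3.08 and -1.94, then -1.59 and -0.77 (mean -1.85 ± 0.35). In both genes pool pair 1 lay further from 0 than pool pair 2, with dyes matched. Protein 1 of the calcium-binding and coiled-coil domain-containing group, a transcriptional coactivator in mammals, measured -2.25 and -2.66, then -1.64 and -3.08 (mean -2.41 ± 0.082). It had the smallest p of all 41524 probes, with a limma adjusted p of 0.575. A probe named calcium binding and coiled-coil domain like lay at -2.45 and -0.81, then -1.23 and -1.79 (mean -1.57 ± 0.084), again below 0 throughout.

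The glycolytic enzyme glyceraldehyde-3-phosphate dehydrogenase (GAPDH) measured -2.03 and -1.18 in pool pair 1 and -2.53 and -1.56 in pool pair 2 (mean -1.82 ± 0.14, 3.54-fold higher in small fish). A structural gene of the same fibres, alpha actin, measured -1.33 and -0.49, then -1.88 and -1.70 (mean -1.35 ± 0.24). Myosin heavy chain, the motor of the thick filament, separated the pool pairs. It lay at -2.65 and -2.16, then -0.33 and -0.55, and with a mean of -1.42 ± 0.51 it missed the threshold. Thrombospondin 2, a matrix protein that limits the growth of vessels, was also unequal, at -1.18 and -3.75, then -0.20 and -1.24 (mean -1.59 ± 0.46), with 1 array far below the others. The probe A_05_P441127, of an RNA-binding protein, measured -2.28 and -0.83, then -0.74 and -0.33 (mean -1.05 ± 0.27). Response gene to complement 32 protein, a cell cycle regulator in mammals, lay between -1.39 and -0.40 (mean -1.04 ± 0.11), and tyrosine-protein phosphatase non-receptor type 12, which acts on focal adhesion proteins, between -1.83 and -0.21 (mean -1.01 ± 0.078).

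**Figure D2:**
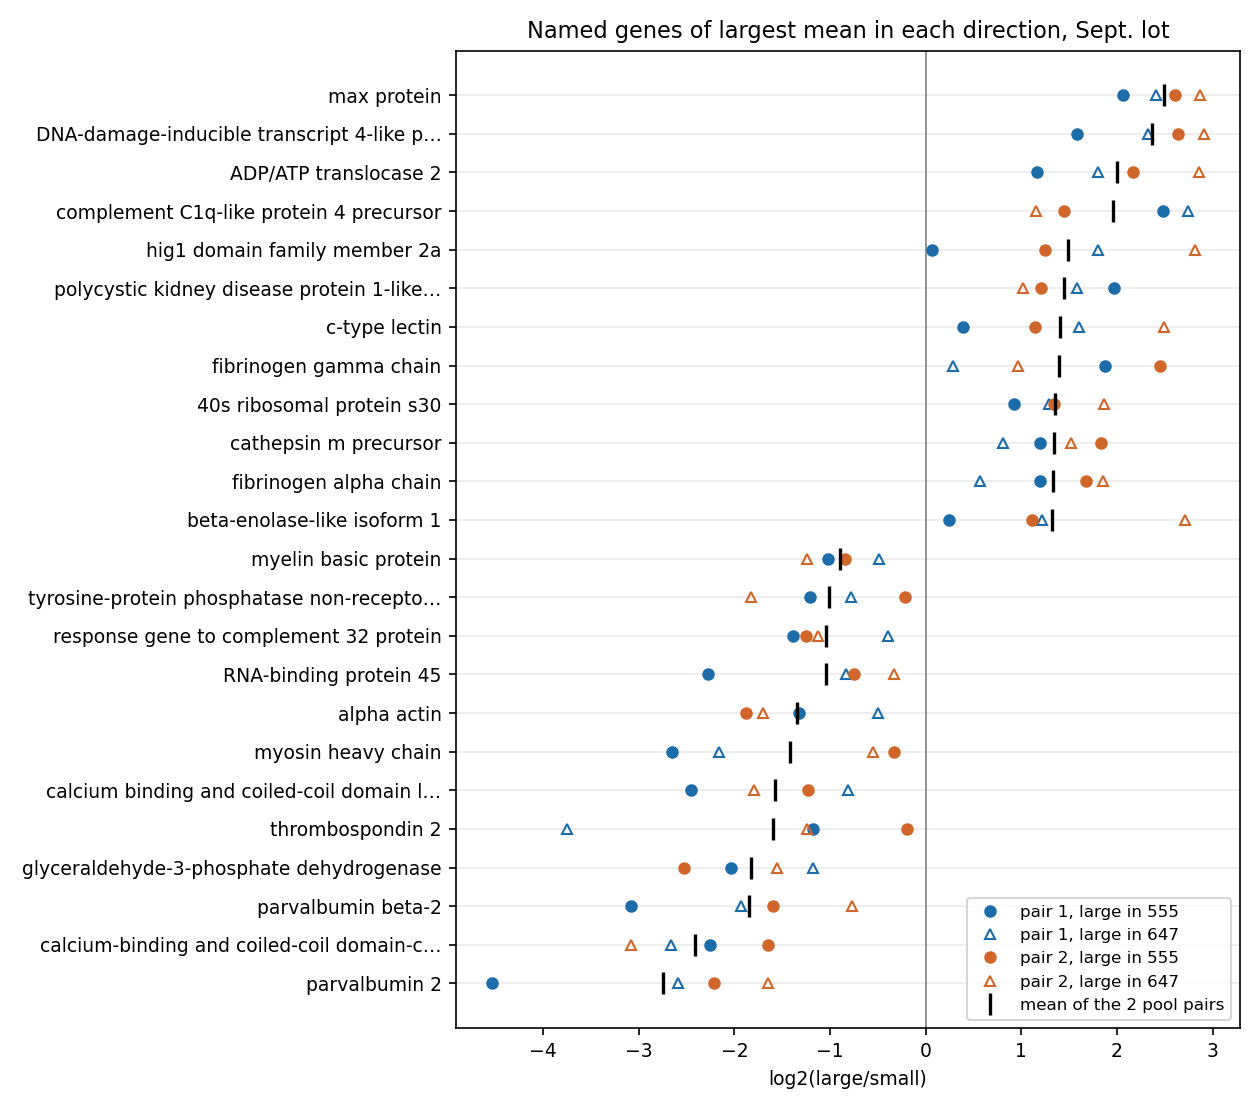
Log2(large/small) on each of the 4 arrays (horizontal axis) for the 24 named genes of largest mean, 12 in each direction, all with 1 sign on every array. Circles are arrays with the large fish in Alexa Fluor 555, open triangles in Alexa Fluor 647, blue is pool pair 1, orange pool pair 2, and the bar is the mean, which runs from 2.49 for max protein to -2.75 for parvalbumin 2.

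Transcripts of proteins of blood plasma and liver were mostly higher in large fish in both pool pairs. The clotting proteins and their inhibitors had a median of 0.93 over 16 probes, against -0.0051 over all probes, and 13 met the 1.2-fold threshold in large fish and 1 in small fish. The complement and acute-phase proteins had a median of 0.94, and 11 of 11 met it in large fish. The carriers of lipid, retinol, heme and metal, which include fatty acid- and retinol-binding proteins that act inside cells, had a median of 0.91, and 16 of 18 met it in large fish. Of these probes 14, 11 and 14 had been picked as differing on the same arrays, so the counts are not independent evidence. The 4 carrier probes without such a pick had a median of 0.80, and the 2 such clotting probes had -0.074. Those 4 carrier probes stand for 2 names only, 3 for the symbol trf and 1 for serum albumin.

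Fibrinogen, the protein of the clot, was represented by 5 probes. The gamma chain probe with the highest mean measured 1.87 and 0.29, then 2.45 and 0.96 (mean 1.39 ± 0.18), and another followed it closely at 1.84 and 0.27, then 2.45 and 0.91 (mean 1.37 ± 0.18). The third gamma chain probe lay at 2.05 and 0.58, then 1.72 and 0.85 (mean 1.30 ± 0.078). All 3 were higher where the large fish carried Alexa Fluor 555. The probe named fibrinogen gamma polypeptide turned the other way, at 0.20 and 1.52, then 0.50 and 1.92 (mean 1.03 ± 0.12), and the alpha chain measured 1.2 and 0.57, then 1.68 and 1.86 (mean 1.33 ± 0.24). Coagulation factor II, or prothrombin, measured 0.81 and 0.32, then 1.43 and 1.2 (mean 0.94 ± 0.21), and antithrombin-III, its inhibitor, had probes at 0.43 ± 0.078 and 0.61 ± 0.13. Factor X differed, as its precursor probe lay at -0.31 and -0.22, then -0.27 and -0.92 (mean -0.43 ± 0.12) and another probe of factor X at 0.026 ± 0.10.

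Of the complement proteins, C3 measured 1.43 and 0.15, then 1.41 and 1.07 (mean 1.02 ± 0.14), C4 0.87 ± 0.11 and the pore-forming C9 0.44 and 0.12, then 1.32 and 1.33 (mean 0.81 ± 0.28). A probe of the mannose-binding lectin-associated serine protease family measured 0.82 and 1.75, then 0.44 and 1.52 (mean 1.13 ± 0.11). C-reactive protein, an acute-phase pentraxin, lay at 0.39 and 1.47, then 0.99 and 1.89 (mean 1.19 ± 0.15), and the serum amyloid P-component probes had means of 1.08 ± 0.11 and 0.95 ± 0.18. All 11 probes of this list were above 0 on each of the 4 arrays. All 11 had also been picked by the study as differing on these arrays, so their signs cannot show consistency.

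Among the carriers, retinol-binding protein 2, an intracellular protein, separated the pool pairs, with 0.66 and 0.69, then 1.95 and 1.95 (mean 1.31 ± 0.34). The probes of the warm temperature acclimation-related protein, a heme-binding plasma protein of fish, were close over arrays, the higher, A_05_P420737, at 1.15 and 0.93, then 1.34 and 1.21 (mean 1.16 ± 0.099, 2.23-fold). Serum albumin lay at 0.30 and 0.44, then 1.31 and 1.76 (mean 0.95 ± 0.31). Its other probe, not picked by the study on these arrays, lay at -0.31 and 1.08, then 0.29 and 1.76 (mean 0.70 ± 0.18). Of 3 probes under the symbol trf, used for transferrin in salmon, none had been picked by the study on these arrays. The highest measured 0.54 and 0.10, then 2.05 and 1.63 (mean 1.08 ± 0.40, short of the threshold). The next lay at -0.31 and 1.15, then 0.68 and 2.10 (mean 0.91 ± 0.26), and the last had -0.02 ± 0.079. Hemopexin, which binds free heme, was the most even of the called carriers, between 0.68 and 0.88 on the 4 arrays (mean 0.77 ± 0.078). Liver-expressed antimicrobial peptide 2, another product known from liver, measured 0.58 and 1.88, then 0.02 and 0.74 (mean 0.81 ± 0.23).

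Hemoglobin, the oxygen carrier of red cells, was also higher in large fish. The red cell list had a median of 0.63, and 9 of its 13 probes met the 1.2-fold threshold in large fish and 0 in small fish. Of the 13, 5 had been picked by the study on these arrays, and the other 8 had a median of 0.25. Alpha chain probes reached 0.83 ± 0.082, with arrays at 0.60 and 0.97, then 0.61 and 1.14, and beta-1 probes 0.75 ± 0.086, with arrays at 0.44 and 0.92, then 0.67 and 0.98. The alpha and beta-1 probes given array by array were named for having the same sign throughout, so their 8 values cannot show consistency. Of the 13 probes of the list, 8 lay above 0 on every array. Among the others, an alpha chain probe measured -0.24 and 1.26, then 0.37 and 1.83 (mean 0.80 ± 0.17). A probe with the symbol hba measured -0.69 and 0.15, then -0.031 and 0.50 (mean -0.019 ± 0.15). The medians of the list were 0.64 and 0.63 in the 2 pool pairs, and 0.20 and 0.40 on the arrays with large fish in Alexa Fluor 555 against 0.92 and 0.86 in Alexa Fluor 647. Band 3, the anion exchanger of the red cell membrane, lay at 0.14 and 0.0087, then 0.42 and -0.43 (mean 0.036 ± 0.081), and 2 of the beta chain probes had means of 0.0046 ± 0.09 and 0.019 ± 0.08. How far blood in the plug set the plasma and liver protein and hemoglobin values was not tested.

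**Figure D3:**
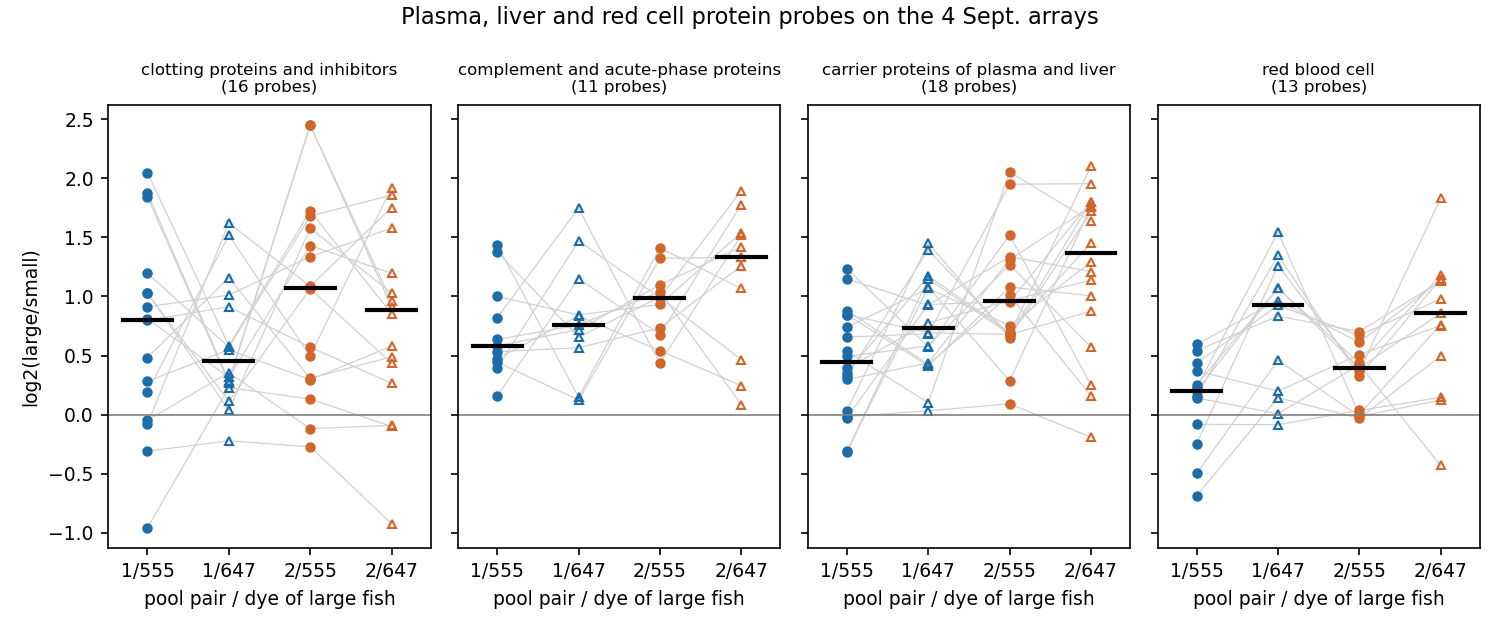
Log2(large/small) of each probe of 4 gene lists (vertical axis) on the 4 Sept. arrays, labelled by pool pair and by the dye of the large fish. Points are probes, grey lines join 1 probe over the arrays and black bars are medians, which lie above 0 on every array in all 4 lists.

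Markers of other tissues that a plug of white muscle can hold had smaller medians. The slow muscle list had a median of 0.30 over 8 probes, 0.58 in pool pair 1 and 0.084 in pool pair 2, and 2 met the threshold in large fish. These were myoglobin, the oxygen store of red fibres, at 0.38 and 1.38, then -0.044 and 0.72 (mean 0.61 ± 0.16), and cardiac troponin T at 1.29 and 0.20, then 0.77 and -0.044 (mean 0.56 ± 0.13). The skin list, although skin was removed, had a median of 0.42 over 6 probes. Keratin 19 lay at 0.043 and 1.49, then 0.26 and 0.95 (mean 0.69 ± 0.088), type I keratin E7 at 0.68 ± 0.079 and ictacalcin, a calcium-binding protein of fish epithelia, at -0.44 and 1.43, then -0.17 and 2.04 (mean 0.72 ± 0.14). These 3 skin probes met the threshold in large fish, and each was much higher with the large fish in Alexa Fluor 647. Of the 6 skin probes, 2 had means below 0 (lowest -0.20) and 1 had 1 sign on all 4 arrays. By array the median of the skin list was -0.20 and 1.12, then 0.16 and 0.46.

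Connective tissue probes had a median of 0.21, and 6 of 14 met the threshold in large fish and 2 in small fish. Fibronectin, a matrix glycoprotein, was even over the arrays at 0.53 and 0.58, then 0.58 and 0.49 (mean 0.54 ± 0.078), as was extracellular matrix protein 1 at 0.72 and 1.01, then 0.76 and 0.80 (mean 0.83 ± 0.081). The alpha 1 and alpha 2 chains of collagen type I had means of 0.58 ± 0.19 and 0.61 ± 0.14 but differed widely between the dyes, at -0.87 and 1.37, then 0.019 and 1.82 for alpha 1. Both probes called in small fish were thrombospondins, thrombospondin 2 given above and thrombospondin 4 at -0.13 and -0.62, then -0.24 and -0.79 (mean -0.45 ± 0.086). The fat and lipid list had a median of 0.15 and 3 probes of 15 called in large and 2 in small fish, with lipoprotein lipase, which frees fatty acids from plasma lipoproteins, at 0.50 ± 0.098 and hormone-sensitive lipase at -0.14 ± 0.088. The leukocyte list lay near all probes, with a median of 0.04 and 1 of 19 probes called in each direction, c-type lysozyme at 0.38 ± 0.09 and a CD209 antigen-like protein D probe at -0.35 ± 0.12.

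Myelin transcripts were higher in small fish. Myelin insulates axons and is made by Schwann cells in the nerves of muscle. The 8 probes had a median of -0.63, all 8 means lay below 0, and 7 met the threshold in small fish, all of them picked by the study on these arrays. Myelin basic protein had 3 probes, at -1.02 and -0.48 in pool pair 1 and -0.85 and -1.25 in pool pair 2 (mean -0.90 ± 0.11), at -0.12 and -0.86, then -0.80 and -1.51 (mean -0.82 ± 0.19) and at -0.52 and -0.50, then -0.65 and -0.51 (mean -0.54 ± 0.08). Not 1 of these 12 values was above 0, but this cannot show consistency. All 3 probes had been picked by the study on these arrays, and the first 2 were named for having 1 sign. Peripheral myelin protein 22 measured -1.6 and -0.51, then -0.26 and -0.60 (mean -0.74 ± 0.18), and myelin protein zero, the chief adhesion protein of peripheral myelin, 0.022 and -0.74, then -0.52 and -1.48 (mean -0.68 ± 0.18). The probe not picked, 2',3'-cyclic-nucleotide 3'-phosphodiesterase, had -0.25 ± 0.26.

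Within the sarcomere the probes went both ways. Thick and thin filament proteins had a median of -0.033 over 18 probes, with 4 at the threshold in large and 3 in small fish. Fast skeletal troponin I, the inhibitory subunit of the calcium switch, measured 0.28 and 0.79, then 1.42 and 1.16 (mean 0.91 ± 0.21), while other probes of the same name had means of -0.13 ± 0.15 and 0.074 ± 0.33. Myosin light chain 1 lay at 1.16 and 1.43, then 0.60 and 0.02 (mean 0.80 ± 0.26). Fast myotomal tropomyosin, which covers the myosin sites on actin, was higher in small fish at -0.48 and -0.23, then -0.50 and -0.14 (mean -0.34 ± 0.079). Fast troponin T-1 changed sign with the dye and by nearly the same amounts in both pairs, at 1.68 and -0.65, then 1.69 and -0.64 (mean 0.52 ± 0.078). Its SE rests on the closeness of the pool pairs and holds nothing of the gap between the dyes.

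Z disc and titin probes were split likewise, with a median of -0.06, 3 of 14 at the threshold in large fish and 4 in small fish. Telethonin, the cap that joins titin to the Z disc, was higher in large fish at both probes, with 0.73 and 0.44, then 1.12 and 0.76 (mean 0.76 ± 0.12) and 0.28 and 0.63, then 0.67 and 1.19 (mean 0.69 ± 0.15). Myozenin-2, which ties calcineurin to the Z disc, had one probe at 0.77 and 1.15, then 0.39 and 0.69 (mean 0.75 ± 0.13) and another at -0.25 ± 0.099. LIM domain binding 3 was higher in small fish, at -0.31 and -0.096, then -0.94 and -0.64 (mean -0.50 ± 0.17), as were xin actin-binding repeat-containing protein (-0.40 ± 0.078) and the muscle Z-line capping protein (-0.32 ± 0.078).

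Calcium handling was headed by the parvalbumins given above. Of 7 probes, 5 met the threshold in small fish and 0 in large fish, with a median of -0.40. All 5 had been picked by the study on these arrays, and the 2 others had a median of 0.057. Calmodulin, the calcium sensor, measured -0.68 and -0.22, then -0.08 and -0.54 (mean -0.38 ± 0.086), and the calcium/calmodulin-dependent protein kinases II delta 2 and IV had means of -0.86 ± 0.079 and -0.40 ± 0.087. The probe with the symbol prvb, used for a parvalbumin beta of salmon, was not picked by the study on these arrays. It turned fully with the dye, at -0.81 and 1.39, then -1.13 and 1.02, leaving a mean of 0.12 ± 0.12.

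Enzymes and channels that move phosphate and adenine nucleotides were mostly higher in small fish. The list had a median of -0.46, and 9 of 12 probes met the threshold in small fish and 2 in large fish, 10 having been picked by the study on these arrays. The 2 not picked had a median of 0.056, with 1 called in large and 0 in small fish. Creatine kinase, which rebuilds ATP from creatine phosphate, measured -1.02 and -0.066, then -1.67 and -0.79 (mean -0.89 ± 0.19) at one probe and -1.03 and 0.026, then -2.53 and -0.77 (mean -1.08 ± 0.31) at the other. Guanidinoacetate N-methyltransferase, the last enzyme of creatine synthesis, lay at -1.12 and -0.42, then -0.53 and -0.52 (mean -0.65 ± 0.10) and -0.49 ± 0.09. Adenylate kinase 1 measured -0.46 and -0.088, then -0.38 and -0.57 (mean -0.38 ± 0.094). The voltage-dependent anion channels are the pores of the outer mitochondrial membrane. Probes of channel 2 lay at -0.64 ± 0.093, -0.52 ± 0.16 and -0.39 ± 0.11. The channel 1 probe, not picked by the study on these arrays, lay at 0.41 ± 0.083.

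Glycolytic enzymes were called mainly in large fish. The 17 probes had a median of 0.22, with 0.23 and 0.24 in the pool pairs, and 8 met the threshold in large fish and 3 in small fish. The 9 probes that the study had not picked on these arrays had a median of 0.19. Pyruvate kinase, the last step before pyruvate, measured 0.43 and 1.18, then 1.12 and 2.28 (mean 1.25 ± 0.24) and 1.15 and 0.22, then 1.66 and 0.99 (mean 1.0 ± 0.18). Lactate dehydrogenase-A, the muscle form, lay at 0.43 and 0.69, then 1.01 and 0.64 (mean 0.69 ± 0.10), and phosphoglycerate mutase 2 at 0.63 ± 0.10. The 3 probes called in small fish were the 2 of GAPDH, the second at -0.54 and -0.60, then -0.45 and -0.28 (mean -0.47 ± 0.095), and a probe named enolase (-0.36 ± 0.11). Probes named enolase 3-2 had means of 0.73 ± 0.093, 0.22 ± 0.13 and -0.0044 ± 0.084.

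The respiratory chain and citrate cycle list had a median of -0.076, and 6 of 18 probes met the threshold in small fish. Of the 6, 2 had not been picked by the study on these arrays, and both changed sign with the dye. Oxoglutarate dehydrogenase measured 1.06 and -2.29, then 0.49 and -1.17, and a probe named aconitate mitochondrial-like 0.31 and -0.67, then 0.028 and -1.35. The 12 probes not picked had a median of -0.02. Cytochrome c, the mobile electron carrier, measured -0.54 and 0.019, then -0.92 and -0.69 (mean -0.54 ± 0.16) at one probe and 0.017 ± 0.082 at another. A mitochondrial ATP synthase subunit was even over arrays at -0.45 and -0.36, then -0.36 and -0.51 (mean -0.42 ± 0.078). The one probe called in large fish was cytochrome b, which is encoded by the mitochondrial genome, at 0.97 and 0.12, then 1.18 and 1.38 (mean 0.91 ± 0.21). NADH dehydrogenase subunit 6, of the same genome, was called in small fish (-0.33 ± 0.079), and subunit 4L lay at 0.022 ± 0.078.

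**Figure D4:**
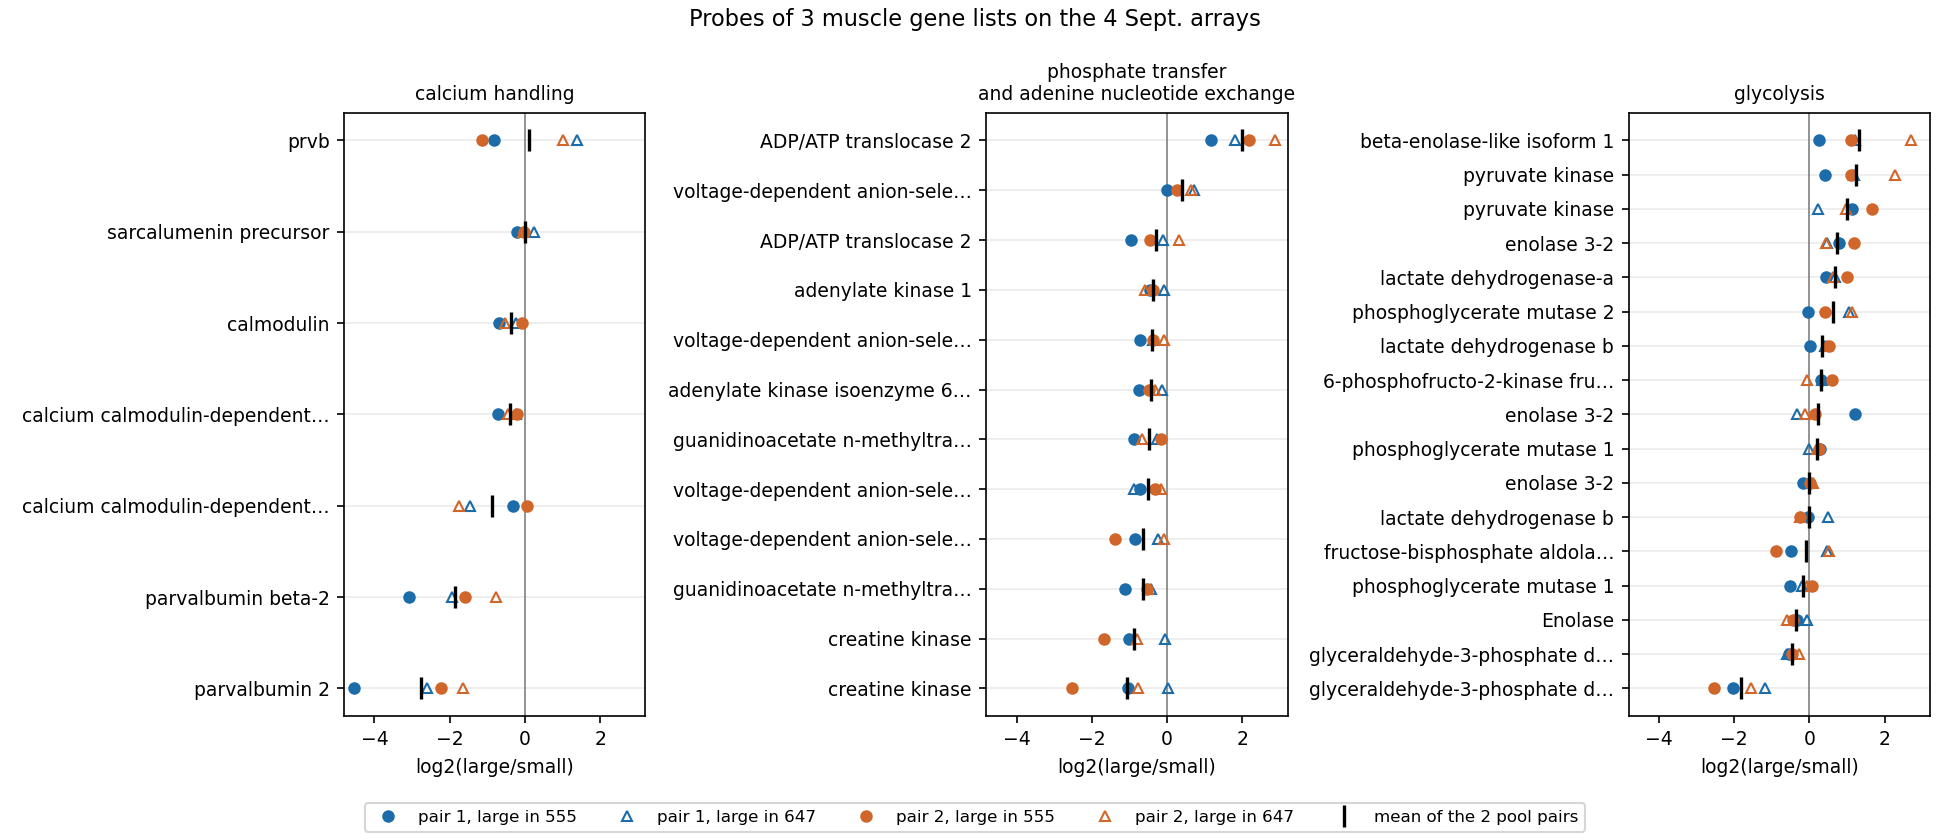
Log2(large/small) on each of the 4 arrays (horizontal axis) for the probes of 3 gene lists, ordered by their mean. Circles are arrays with the large fish in Alexa Fluor 555, open triangles in Alexa Fluor 647, blue is pool pair 1, orange pool pair 2 and the bar is the mean. The calcium list ends at parvalbumin 2 (-2.75), the middle list at a creatine kinase probe (-1.08) and glycolysis at GAPDH (-1.82), while ADP/ATP translocase 2 (2.00) and beta-enolase (1.32) stand at the top.

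Among genes of transcription, RNA processing and protein turnover, more probes met the threshold in small than in large fish in every list except the ribosomal proteins. Their values were modest, and nearly all of them had been picked by the study on these arrays. Over all 1378 named probes there were also more calls in small fish, 231 beside 151 in large fish. These include the study's picks on these arrays, 212 for small and 89 for large fish. Among the 1077 named probes not picked, 25 were called in small and 62 in large fish. The RNA polymerase II list had a median of -0.35, and 7 of 8 probes met the threshold in small fish. Rpb2, the second largest subunit of the polymerase, measured -0.40 and -0.10, then -0.19 and -0.69 (mean -0.35 ± 0.092), and mediator subunit 4, of the complex that bridges activators and polymerase, -0.21 and -0.28, then -0.23 and -0.96 (mean -0.42 ± 0.12). Splicing and mRNA processing had a median of -0.14, with 11 of 30 at the threshold in small fish and 0 in large fish. Of its 18 probes not picked, 14 lay below 0, with a median of -0.072 and none at the threshold. Heterogeneous nuclear ribonucleoprotein G measured -0.49 and -0.23, then -1.14 and -0.93 (mean -0.70 ± 0.19), and splicing factor 3b subunits 3 and 1, of the U2 particle, had means of -0.42 ± 0.082 and -0.31 ± 0.079.

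Ribosome assembly factors had a median of -0.17 over 14 probes, with 5 at the threshold in small fish and 0 in large fish. Tsr1, which matures the small subunit, measured -0.85 and -0.27, then -0.93 and -0.48 (mean -0.63 ± 0.086), nucleolar GTP-binding protein 1 -0.26 and -0.96, then -0.083 and -0.80 (mean -0.53 ± 0.089), and the export adaptor Nmd3 -0.44 and -0.0043, then -0.60 and -1.63, a spread that left its mean of -0.67 ± 0.24 short of the threshold. The ribosomal proteins themselves had a median of 0.064 over 19 probes, 3 being called in large and 2 in small fish. Besides S30, S13 was higher in large fish (0.52 ± 0.095), and a ribosomal protein L3-like probe, a form known from muscle in mammals, was higher in small fish at -1.0 and -0.47, then -0.54 and -0.54 (mean -0.64 ± 0.093). L13a changed sign between the swapped arrays of both pool pairs, at 1.34 and -1.59, then 2.86 and -2.35, with a mean of 0.064 ± 0.12. Why it turned was not tested.

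Translation factors and tRNA synthetases had a median of -0.075, with 6 of 18 at the threshold in small fish. Aspartyl-tRNA synthetase had a mean of -0.59 ± 0.13, the e subunit of initiation factor eIF3 measured -0.48 and -0.39, then -0.48 and -0.80 (mean -0.54 ± 0.094), and eIF5B lay at -1.71 and -0.75, then -0.11 and -0.18 (mean -0.68 ± 0.29), far lower in pool pair 1 and short of the threshold. The highest was eIF5A-1 at 3.99 and 0.51, then 0.17 and -0.34 (mean 1.08 ± 0.61, short of the threshold), with 1 array far above the others. All 6 called probes had been picked by the study on these arrays. Of the 11 not picked on them 7 lay above 0, with a median of 0.019. Of 31 proteasome and ubiquitin probes, 13 met the threshold in small fish and 0 in large fish, with a median of -0.16. The core subunits alpha type-5 (-0.59 and -0.13, then -0.73 and -0.61, mean -0.52 ± 0.11) and alpha type-6 (-0.95 and -0.0086, then -0.41 and -0.71, mean -0.52 ± 0.081) and the proteasome maturation protein (-0.54 ± 0.13) were lowest. The 19 probes of this list left after the picked ones were taken out had a median of 0.033, which tends towards 0 by that selection. The immunoproteasome subunits psmb8b, psmb9a and psmb9b did not meet the threshold.

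Chaperones had a median of -0.23, with 7 of 18 at the threshold in small fish. Of 5 probes of the cytosolic chaperonin CCT, which folds actin and tubulin, 4 met it in small fish, from subunit 6a at -0.77 and -0.20, then -0.89 and -0.45 (mean -0.58 ± 0.091) and subunit beta at -0.91 and -0.27, then -0.78 and -0.095 (mean -0.51 ± 0.087) to the gamma probes at -0.50 ± 0.10 and -0.43 ± 0.11. The epsilon subunit of the same ring was the one chaperone called in large fish, at 0.31 and 0.43, then 0.92 and 1.44 (mean 0.78 ± 0.22).

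**Figure D5:**
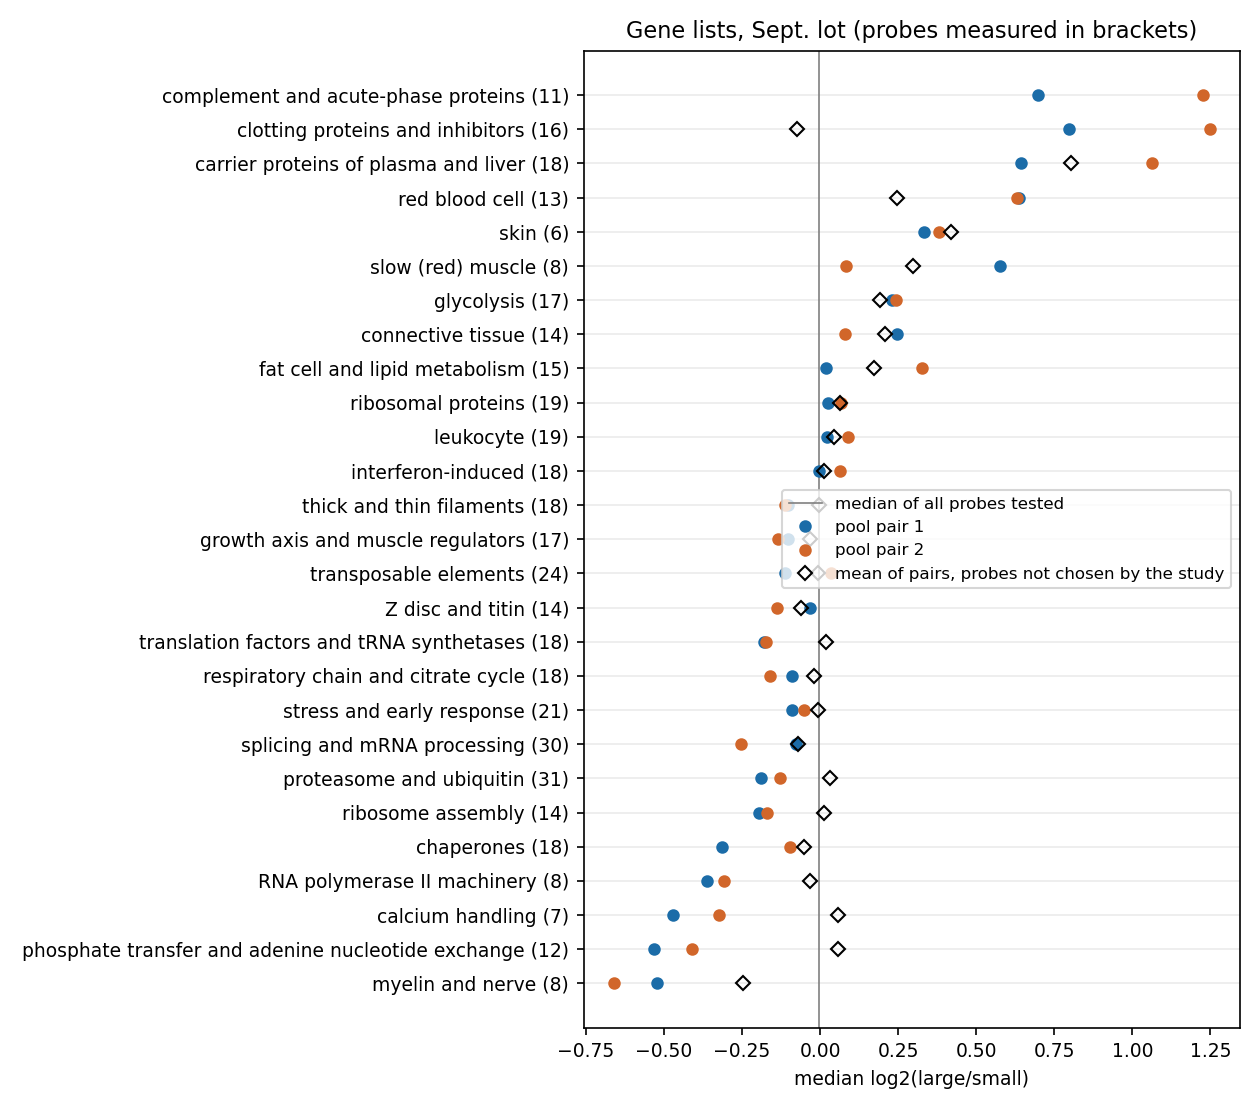
Median log2(large/small) of the probes of 27 gene lists (horizontal axis), with the number of probes in brackets. Blue and orange points are the medians of pool pairs 1 and 2, open diamonds are the medians of the mean over pairs for the probes that the study did not pick from these arrays, and the line is the median of all probes tested. The diamonds lie near 0 in ribosome assembly (0.012), translation (0.019) and proteasome (0.033). In the carrier proteins the diamond lies at 0.80 and covers 4 probes of trf and serum albumin. The diamonds leave out probes chosen for differing, so they are no independent test of the lists.

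Stress and early response genes had a median of -0.091, with 2 of 21 at the threshold in large fish and 6 in small fish. In small fish these included nf-kappa-b inhibitor alpha, at -0.11 and -0.56, then -0.50 and -0.88 (mean -0.51 ± 0.12), dual specificity phosphatase 1, which turns off MAP kinases, at -1.0 and -0.12, then -0.42 and -0.42 (mean -0.49 ± 0.086), and thioredoxin interacting protein at -0.48 ± 0.095. In large fish they were the DNA-damage-inducible transcript 4-like protein given above and 1 sestrin 1 probe, of a stress protein that also restrains mTOR, at 0.35 and 0.30, then 0.61 and 0.071 (mean 0.33 ± 0.078), while the other sestrin 1 probe had -0.16 ± 0.084. Of the 21 probes of this list, 6 had been picked by the study on these arrays. The other 15 had a median of -0.0065, with 1 called in each direction.

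Of the growth hormone and IGF axis and the myogenic factors, 0 of 17 probes met the threshold in large fish and 3 in small fish. Over all 1378 named probes, picked ones included, 151 and 231 met it. Of the 17, 16 had not been picked by the study on these arrays. Those 16 gave 0 calls in large and 2 in small fish, beside 62 and 25 of the 1077 named probes not picked. The list had a median of -0.038. The myogenic regulator myod1, which commits cells to muscle, measured -0.91 and -0.39, then -0.76 and 0.23 (mean -0.46 ± 0.13), and myoblast determination protein 2 -0.13 and -0.38, then 0.01 and -0.55 (mean -0.26 ± 0.078). Neither had been picked by the study in this lot. Musculoskeletal embryonic nuclear protein 1 measured -0.34 and -0.33, then -0.064 and -0.59 (mean -0.33 ± 0.078). Myostatin, given by its symbol gdf-8, which holds back muscle growth, lay at -0.59 and 0.31, then 0.32 and -0.061 (mean -0.0049 ± 0.10). The growth hormone receptor ghr1 had 0.13 ± 0.088 and the IGF-I receptor 0.013 ± 0.11, each within 2 SE of 0.

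Interferon-induced genes lay close to all probes, with a median of 0.013 and 1 of 18 probes called in each direction. The 6-16 family probe measured 0.31 and 0.58, then 0.56 and 0.58 (mean 0.51 ± 0.084), and the interferon-induced helicase with a C domain, a sensor of viral RNA, was even over the arrays at -0.24 and -0.27, then -0.27 and -0.30 (mean -0.27 ± 0.078). The antiviral GTPases mx1 and mx2 had means of -0.095 ± 0.095 and -0.039 ± 0.078. Among 24 probes of transposable elements, 4 met the threshold in small fish and 0 in large fish, beside 231 and 151 of 1378 named probes. All 4 had been picked by the study on these arrays. The 20 others had a median of -0.0073, and 0 of them were called. Of the 4 called probes, 3 carry the name of harbi1-like nucleases, genes derived from a DNA transposon, the lowest at -1.0 and -0.78, then -0.21 and -0.90 (mean -0.72 ± 0.12).

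Named probes that the study had not picked in this lot and that had 1 sign on all 4 arrays reached smaller values in small than in large fish. In small fish HEAT repeat-containing protein 3, a chaperone of ribosomal protein import in yeast and mammals, was lowest at -0.16 and -1.66, then -0.26 and -0.33 (mean -0.60 ± 0.18), followed by the mitotic kinase nek6-like at -0.092 and -0.61, then -0.011 and -0.97 (mean -0.42 ± 0.086) and mitochondrial 60 kDa heat shock protein at -0.019 and -1.25, then -0.026 and -0.31 (mean -0.40 ± 0.14). In large fish, beside trf, hba and keratin 19, they included the probe A_05_P395527 of an uncharacterized zinc finger protein at 2.43 and 0.18, then 0.37 and 0.088 and probable peptidyl-tRNA hydrolase 2-like at 2.24 and 0.12, then 0.18 and 0.23. In both of these last probes 1 array of pool pair 1 made up most of the mean, and neither met the threshold. Most probes carry no name: of those at the threshold, 576 in large and 696 in small fish were unnamed. The unnamed probe with 1 sign that lay highest, A_05_P468427, measured 0.33 and 4.53, then 0.013 and 0.53, and the lowest, A_05_P444637, -0.68 and -0.15, then -0.63 and -3.49, so that 1 array set each mean.

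Of 128 names carried by more than 1 probe, 68 had all their probes on one side of 0 and 60 had probes on both. The widest was ADP/ATP translocase 2, whose second probe lay at -0.95 and -0.10, then -0.45 and 0.32 (mean -0.29 ± 0.14) against 2.00 for the first. Alpha actin had a second probe at -0.35 and 1.24, then 0.70 and 0.78 (mean 0.59 ± 0.11) against -1.35, myosin heavy chain at -0.73 and 0.42, then -0.78 and 0.67 (mean -0.11 ± 0.082) against -1.42, and complement C1q-like protein 4 at -0.087 ± 0.16 against 1.96. Hig1 domain family member 2a had a second probe at 0.25 ± 0.091 against 1.48, and polycystic kidney disease protein 1-like 3 at 0.12 ± 0.096 against 1.44. The RNA-binding protein of A_05_P441127 (-1.05) had other probes at -0.33 ± 0.082 and -0.05 ± 0.08. Probes of 1 name can stand for duplicated genes of the salmonid genome or for parts of 1 transcript, and which holds was not tested. Only the transposable element Tcb1, with 9 probes, had probes of 1 sign on all arrays in both directions.

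The Dec. lot, fish of the same strain from other parents, with a hatching time given as Dec, was measured in the same way, and the difference of the lots was tested on 38488 probes present on all 8 arrays. Limma called 0 of these at an adjusted p under 0.05, with 3483 (9.05%) at an unadjusted p under 0.05. Of the 114 probes taken by the naming rule, 100 had a value on all 8 arrays and none passed (lowest adjusted p = 0.483), while 33 had an unadjusted p under 0.05, which cannot be read as a result because the rule took probes that were far from 0 in Sept. Parvalbumin 2 had a mean of -1.6 in Dec. beside -2.75 in Sept., max protein 1.42 beside 2.49, and fibrinogen alpha chain 1.58 beside 1.33. One myosin heavy chain probe showed the widest gap among the small-fish genes with a Dec. value that are plotted array by array. It lay at 0.96 in Dec. beside -1.42 in Sept., a difference of 2.38 (limma adjusted p = 0.500). The second probe of that name shifted the opposite way. It lay at -2.06 in Dec. beside -0.11 in Sept., a difference of -1.95 (limma adjusted p = 0.554).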

How the data were processed

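The authors labelled cDNA of pooled muscle mRNA, hybridised it to Agilent salmonid arrays, scanned and flagged the spots, removed points of low signal and applied lowess both to each array and between arrays. What they deposited are log2 ratios between the channels. No intensities or scanner files were used here, so background and saturation were not checked. Every column was read as small over large, swapped arrays included. Under this reading the means of all 89 probes listed for large and 212 listed for small Sept. muscle carry the listed sign. The study picked these probes from the same values, so their signs cannot show whether the swapped arrays had been turned. Values were negated. Of 43663 rows, 60 control features were left out, and no probe accession matched the RefSeq table. Names came from the study's lists of picked probes (1308 probes) or from the array's annotation (221 probes with 1 symbol, 86 of these only a locus number and left unnamed).

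The arrays of a dye swap were averaged, and limma 3.58.1 (lmFit and eBayes) tested the 2 pool pairs of the Sept. lot against 0 over 41524 probes, with Benjamini-Hochberg adjustment. The 1.2-fold threshold, with an unadjusted p up to 0.05, is that of the study's methods. The median SD between pool pairs was 0.0992 and the median limma SE 0.0860. Both pool pairs come from the same 5 families, so p-values cover the spread between these pools only. The script was tested on simulated data. Genes named in the text were the 12 named genes of largest mean per direction with 1 sign on all 4 arrays. To these came the 8 such probes per direction that the study had not picked on these arrays. The 3 such probes of largest absolute mean in each of 27 lists were also taken. Every probe of a gene of several probes named by the first 2 rules was added, 114 probes in all. Further list members were named after their values were seen, to describe a list. The members and lists were chosen with earlier results of these data known. Alternatives were a fit of both lots, the methods' t-test, a t-test on pool pairs, a dye term with the pool pair as a replicate block, centred or scaled arrays, 1 dye orientation, all 8 arrays as the required set, a looser requirement on missing values and leaving out each pool pair. Added after seeing the data was a reading of the swapped arrays as unturned.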

Additional observations from a re-analysis of the deposited data

Results flagged for a closer look

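In 14 named probes and 1 list median of the Sept. lot, 1 of the 4 arrays lay apart from the others, the gap to the nearest array taking up more of the whole range than Dixon's critical value. Chance flags about 1 in 20 groups, and no explanation was tested. The share of the range was 0.948 for probable peptidyl-tRNA hydrolase 2-like and 0.879 for the uncharacterized zinc finger probe A_05_P395527, both with the high array in pool pair 1 and large fish in Alexa Fluor 555. It was 0.956 for growth factor receptor-bound protein 14, an adaptor of insulin and growth factor receptors, and 0.891 for HEAT repeat-containing protein 3, both set apart by the other array of pool pair 1. It was 0.899 for mediator subunit 4, 0.853 for cytochrome c oxidase subunit VIb, 0.834 for protein cln8, 0.884 for beta-glucosyltransferase and 0.885 for a transposase homolog. In these genes the array of pool pair 2 with large fish in Alexa Fluor 647 was the lowest. It was 0.9 for the interferon-induced 6-16 family probe and 0.84 for c-type lysozyme, where the array of pool pair 1 with large fish in Alexa Fluor 555 was the lowest. It was 0.875 for the ribosomal protein L3-like probe, 0.839 for guanidinoacetate N-methyltransferase and 0.9 for a myelin basic protein probe, where 1 array lay below the other 3. For the median of the interferon-induced list it was 0.88.

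In 4 named probes all 4 Sept. arrays had one sign and all 4 Dec. arrays the other. The Dec. minus Sept. difference was -1.32 for the uncharacterized zinc finger probe A_05_P395527, -1.30 for probable peptidyl-tRNA hydrolase 2-like, 0.94 for a mitochondrial ATP synthase subunit and 1.09 for a harbi1-like nuclease. None of them passed the test of the difference between the lots after adjustment (limma, 38488 probes), and they were noticed for their signs.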

How the results depend on the processing

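The count of probes with a Benjamini-Hochberg adjusted p under 0.05 was 0 under every alternative except a t-test on the 2 pool pairs without moderation, which called 6. The count at the 1.2-fold threshold was 1654 (727 higher in large, 927 in small fish) and came to 1158 with the spread shared by both lots, of which 480 in large fish. It was 369 (167 and 202) by the methods' t-test and 252 (87 and 165) by the t-test on pool pairs. With a dye term and the pool pair as a replicate block it was 1570 (660 and 910), the correlation within a block, -0.149, having been estimated over all 8 arrays because 4 leave too few degrees of freedom. The pair numbers join arrays of the same pools, and the block changed no adjusted call. Only the arrays with large fish in Alexa Fluor 555 gave 3444 (2020 and 1424), and only those in Alexa Fluor 647 gave 3244 (1043 and 2201). Without one pool pair the count ranged from 1136 to 2078, with 598 to 1273 in large and 538 to 805 in small fish, the remaining pair being assumed to vary like the Dec. pairs. Without pool pair 1 there were 1273 in large and 805 in small fish, and without pool pair 2 there were 598 and 538, so the side with more calls turned in both, as with Alexa Fluor 555 alone. Centring gave 781 against 870 and scaling 798 against 849. A reading of the swapped arrays as not yet turned, chosen after seeing the data, gave 4312 (2666 and 1646), and under it 62 of 114 named probes and 13 of 27 list medians would change sign. The causes of these shifts were not tested.

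Among named values, a myosin heavy chain probe (-0.11) was 0.54 on the arrays with large fish in Alexa Fluor 647 alone, and the median of the growth axis list (-0.038) was 0.0205 on those in Alexa Fluor 555 alone. Counting these, 16 signs of named probes and list medians differed from the reported ones, 6 on the arrays of Alexa Fluor 555 alone, 3 on those of Alexa Fluor 647 alone, 3 without each pool pair and 1 with scaled arrays. Centring, the shared spread, the other tests and both filters on missing values changed none. With 2 pool pairs and ratios that carry no signal over background, dim probes cannot be set apart from bright ones.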
